A study of Mus musculus with 25 samples.

Results

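The mitochondrial genome of the mouse (chromosome M) encodes 37 genes in the reference annotation used here, of which 13 are mRNAs, 22 are tRNAs and 2 are ribosomal RNAs. Every row of the count tables whose gene symbol begins with mt- was taken, which gave 29 of 29244 genes, made up of the 2 rRNAs mt-Rnr1 and mt-Rnr2, 11 mRNAs and 16 tRNAs. The choice is by symbol alone and uses no count. The other 8 genes of chromosome M, namely mt-Atp8, mt-Nd4l, mt-Tn, mt-Ts1, mt-Td, mt-Tk, mt-Tg and mt-Th, had no row in the tables used here.

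Mitochondrial DNA is transcribed from both strands into long precursors that are then processed, mostly at the tRNAs, into the separate rRNAs, mRNAs and tRNAs. The rRNAs form the RNA core of the mitochondrial ribosome (mt-Rnr1 the small subunit, mt-Rnr2 the large subunit), the mRNAs encode subunits of respiratory complexes I, III, IV and V, and the tRNAs serve translation inside the organelle. All other subunits of these complexes, and the whole of complex II, come from nuclear genes. In the male germline, mitochondria change their shape and place as spermatocytes divide and spermatids elongate, and those of the finished sperm sit in the midpiece of the tail.

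The data are Drop-seq counts of unique molecular identifiers (UMIs, each standing for 1 captured molecule) from single cells of mouse testis in 25 libraries, and the library is the replicate throughout. Drop-seq primes reverse transcription on runs of A, so a transcript is captured at a poly(A) tail or an internal run of A. The controls were 9 libraries of whole testis from wild-type C57BL/6 mice aged 3 months 1 day to 9 months 14 days, dissociated mechanically, and another 2 wild-type C57BL/6 libraries were dissociated enzymatically at 3 months 21 days and 4 months 2 days. Mechanically dissociated mutants were Mlh3-/- (6 libraries, B6;129 background, 2 months 21 days to 8 months 30 days), Cul4a-/- (2 libraries, B6;129, 1 month 18 days and 1 month 21 days) and CNP, which carries the CNP eGFP BAC TRAP transgene (2 libraries, C57BL/6, 2 months 14 days and 2 months 16 days). The other 4 libraries were sorted cells, 1 each: GFP-positive spermatogonia pooled from 5 litter mates of the line labelled Pouf51-EGFP (C57BL/6, postnatal day 7, enzymatic), and Hoechst-sorted primary spermatocytes, secondary spermatocytes and spermatids from wild-type C57BL/6 mice of 2 months 21 days. These strains and ages are those of the labels. The study's methods name the Mlh3 line B6.129 and the Pou5f1-EGFP line B6;CBA instead, and its supplementary list gives the Cul4a-/- ages to the CNP mice and the CNP ages to Cul4a-/-. By either source both strains were younger than every control. Strain background (Mlh3-/-, Cul4a-/-) and age (Cul4a-/-, CNP) thus cannot be told apart from genotype. Mlh3-/- libraries 2 and 3 share an age, and whether they came from 1 mouse is not given in the sources used here.

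Libraries held 107117 to 9745302 UMIs (median 2210512), and 44404 of 48642 barcodes had at least 200 UMIs and 50 genes and were used. The controls held 1288257 to 3829176 UMIs each, the Mlh3-/- libraries 450745 to 6340116, the Cul4a-/- libraries 9691555 and 9745302, and the CNP libraries 775386 and 1054964. MiSeq runs gave the Hoechst-sorted libraries, mechanical wild-type library 3, enzymatic library 1 and Mlh3-/- libraries 1 and 2, and a HiSeq the rest. Across libraries, 430 barcode sequences occurred more than once, on 991 barcodes or 2.04% of all. 4 libraries stood apart in mitochondrial RNA: wild-type library 3 had the lowest rRNA and mRNA shares of its group, wild-type library 4 the highest of both, Mlh3-/- library 2 had a mitochondrial mRNA share of 3.03% where the other 5 had at most 1.23%, and Mlh3-/- library 1 had 146 mt-Rnr2 UMIs per mt-Rnr1 UMI where the other 5 had at most 23.3. UMIs of the targeted genes were present in the mutants: on the scale of CPM (a gene's UMI counts scaled to the same total in each library) Mlh3 stood at 26.2 to 86.5 in Mlh3-/- against 39.3 to 72.9 in the controls, and Cul4a at 49.0 and 54.5 in Cul4a-/- against 23.7 to 45.7. Tags near a transcript's 3′ end do not show a deletion elsewhere in the gene, so this does not check the genotype. Markers of elongating spermatids, a list of 11 genes, summed to 2.13 to 13.3 CPM in Mlh3-/- against 28333 to 52237 in the controls.

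Some mitochondrial genes share sequence with nuclear copies, and the sequences shown here are those at the 3′ ends of such genes. The 29 genes were compared with every other annotated transcript in windows of 50 bases (GENCODE transcripts of the mouse build GRCm38, same strand). mt-Co2, a core subunit of cytochrome c oxidase (complex IV), lies at M:7013-7696 and shared 100% of its windows with another gene. mt-Co3, another subunit of that complex (M:8607-9390), shared 99.9%, mt-Atp6, a subunit of ATP synthase (complex V, M:7927-8607), shared 99.5%, and mt-Nd3, a complex I subunit (M:9459-9806), shared 98.0%. Summed over all 25 libraries, mt-Co2 had 6 UMIs, mt-Co3 had 4, mt-Atp6 had 4 and mt-Nd3 had 837. These copies are annotated nuclear genes: Gm28661 holds 632 of the 635 windows of mt-Co2, Gm28437 holds 734 of 735 of mt-Co3, Gm10925 holds 629 of 632 of mt-Atp6 and Gm28438 holds 293 of 299 of mt-Nd3. None of these 4 had a row in the tables used here. Another copy, Gm13341, shares 224 windows with mt-Co2 and had 962 UMIs. How reads that match both places were counted is not given in the sources used here, so the levels of these 4 mRNAs are uncertain. The 3′ ends below show how little there is to tell mt-Co2 and mt-Co1 from their copies, since every 50-base window in the last 300 bases of both genes recurs elsewhere, and mt-Cytb is shown as a gene with no shared window:
mt-Co2: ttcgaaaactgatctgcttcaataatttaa
mt-Co1: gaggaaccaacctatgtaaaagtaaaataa
mt-Cytb: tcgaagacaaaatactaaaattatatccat

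The remaining mRNAs shared less. mt-Co1, the catalytic subunit of complex IV (M:5328-6872), shared 51.1% of its windows, of which 430 lie in Gm29216, 411 in Gm13340 and 5 in Gm11512, and had 28088 UMIs. With 100% of the windows in its last 300 bases shared, its level is uncertain too. mt-Nd4 (M:10167-11544) shared 62.2% but none within its last 300 bases, and had 33881 UMIs. mt-Nd2 shared 8.19% (31.9% in its last 300 bases) and mt-Nd5 7.61% (1.99%), while mt-Nd1, mt-Cytb, mt-Nd6 and mt-Rnr1 shared no window and mt-Rnr2 shared 1.04%. Among the 11 mRNA rows, the 3 under 10 UMIs are all among the 5 mRNA genes with over 90% of windows shared, the other 2 being mt-Nd3 and mt-Nd4l. mt-Atp8 and the 6 tRNAs without a row shared no window with an annotated transcript. Copies outside annotated transcripts were not searched, and mt-Atp8 lies between mt-Co2 and mt-Atp6, so such copies may exist for these genes too. The rRNAs carry no long poly(A) tail but have A-rich stretches inside. The stretches of 30 bases with the most A in the 2 rRNAs and in mt-Nd4 are shown for that reason, beside that of mt-Nd6, the only mRNA encoded on the other strand and the poorest in A, with the longest run of A in capitals:
mt-Rnr2: aaacttgctAAAAAAAcaacaaaatcaaaa
mt-Rnr1: taaagtaagcaaaagaatcaaacatAAAAA
mt-Nd4: ctAAAAAAAgataataacgtactacaaaaa
mt-Nd6: tAAttattatgatgaagttggagtaattaa
These lie at bases 386 to 415 of mt-Rnr2 (20 of 30 bases are A), 646 to 675 of mt-Rnr1 (20), 250 to 279 of mt-Nd4 (19) and 318 to 347 of mt-Nd6 (12), counted from the 5′ end of each transcript. mt-Nd6 (M:13552-14070) had 3138 UMIs in all, against 62593 for its neighbour mt-Cytb (M:14145-15288) on the opposite strand. Where reverse transcription began on each molecule was not tested.

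**Figure D1:**
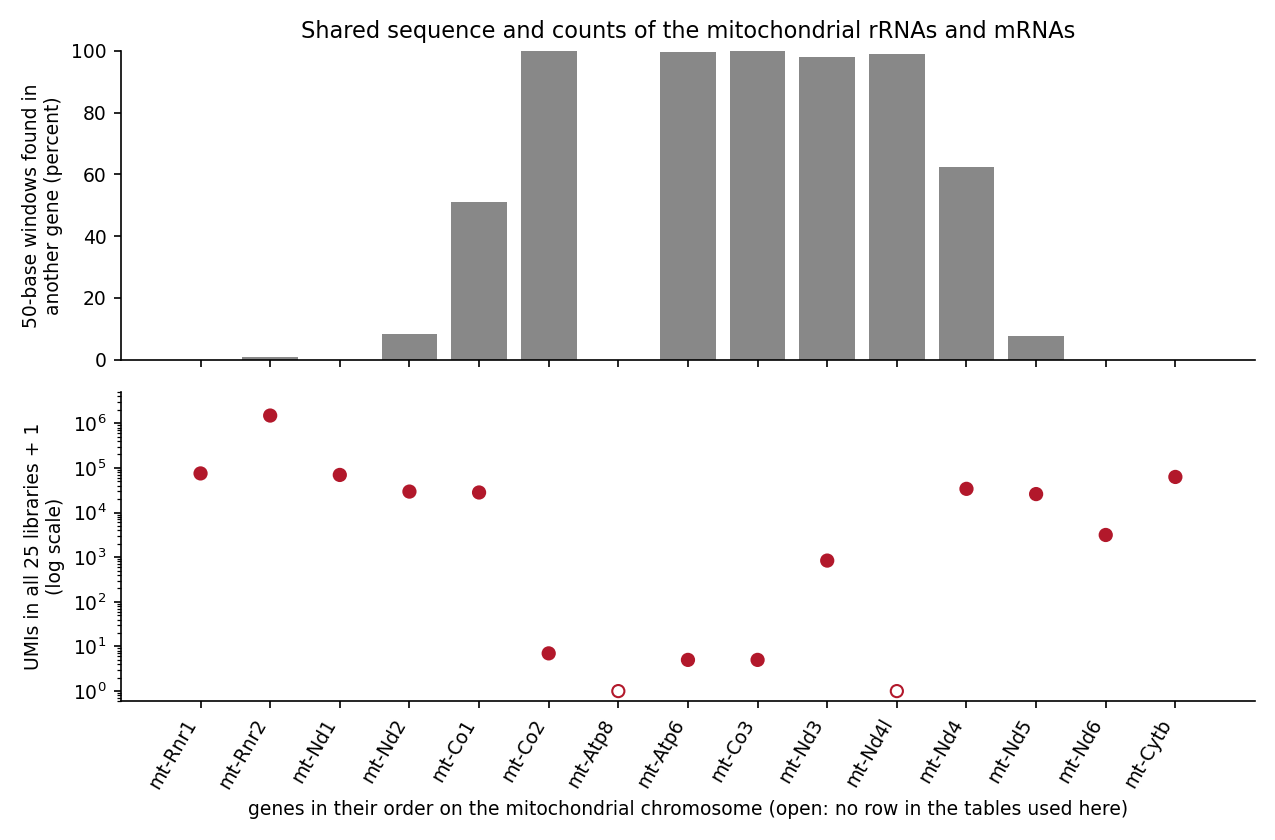
Upper panel, percent of each gene's 50-base windows that occur in another annotated gene; lower panel, UMIs in all 25 libraries plus 1 on a log axis, with open symbols for genes without a row. Among mRNAs with a row, the genes at or near 100% in the upper panel have the fewest UMIs, while mt-Rnr2, mt-Rnr1, mt-Nd1 and mt-Cytb sit near 0% with the most. mt-Atp8, at 0%, has no row.

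In wild-type testis mt-Rnr2 made up most of the mitochondrial UMIs. Its share of all mitochondrially encoded UMIs was 73.2% to 91.5% in the 9 mechanical wild-type libraries, with a median of 88.5%. Since a molecule gives 1 UMI at the site of capture, counts need not grow with transcript length, and values per length set genes side by side only with that limit. On the scale of CPM per kilobase of transcript, mt-Rnr2 stood at 6433 ± 2236 (SD, n = 9), followed by mt-Nd1 at 374 ± 53.5 and mt-Cytb, the cytochrome b of complex III, at 292 ± 52.1. The ranges of mt-Nd1 (313 to 482) and mt-Cytb (183 to 370) overlapped across libraries, but within a library mt-Nd1 was above mt-Cytb in 9 of 9. mt-Nd4 at 135 ± 23.8 and mt-Nd2 at 131 ± 18.7 came next and were not separated, with mt-Nd4 the higher in 6 of 9 libraries, nor were mt-Rnr1 at 84.9 ± 21.1 and mt-Co1 at 83.5 ± 39.0, with mt-Rnr1 the higher in 5 of 9. mt-Nd5, the longest of the complex I mRNAs, stood at 54.5 ± 14.5, mt-Nd6 at 19.1 ± 5.78 and mt-Nd3 at 8.36 ± 5.11. The tRNAs, whose short length raises this scale, had their highest values in mt-Ty at 58.7 ± 41.5 and mt-Tp at 53.2 ± 38.3, and mt-Co2, mt-Co3 and mt-Atp6 were at 0 in all 9 libraries. A count of 0 in the deepest of these libraries still allows 3 UMIs.

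As a share of all UMIs in a library, the 2 rRNAs together made up 0.300% to 1.55% in the controls (median 1.05%), and the mRNAs 0.103% to 0.170% (median 0.124%). Library 3 had the lowest share of both, with mRNA at 0.103% where the other 8 had at least 0.111%. Among these 6 mRNAs the share of mt-Co1 varied most between libraries: mt-Nd1 made up 26.7% to 30.4% of mitochondrial mRNA UMIs, mt-Cytb 20.3% to 29.7%, mt-Nd4 10.8% to 16.7%, mt-Nd2 8.91% to 12.9%, mt-Nd5 6.73% to 9.78% and mt-Co1 6.35% to 17.2%. In the 2 enzymatic wild-type libraries the rRNA share was 0.568% and 1.12%, inside the range of the mechanical ones. Their mRNA shares lay outside it, at 0.0703% in library 1 and 0.272% in library 2. Against the mechanical libraries, where 5.41% of all genes were called higher, mt-Co1 (1.88 ± 0.40, log2 fold change ± SE), mt-Nd3 (2.32 ± 0.60) and mt-Rnr1 (2.08 ± 0.50) passed edgeR's quasi-likelihood test, Benjamini-Hochberg adjustment (adjusted p = 0.00299, 0.0123 and 0.00698). mt-Co1 stood at 75.6 CPM in enzymatic library 1 and 876 in library 2, against 73.2 to 261 in the mechanical libraries, and mt-Nd3 at 0 and 23.2, so both differences rested on library 2. mt-Rnr1 did not pass without enzymatic library 1, at 1.49.

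**Figure D2:**
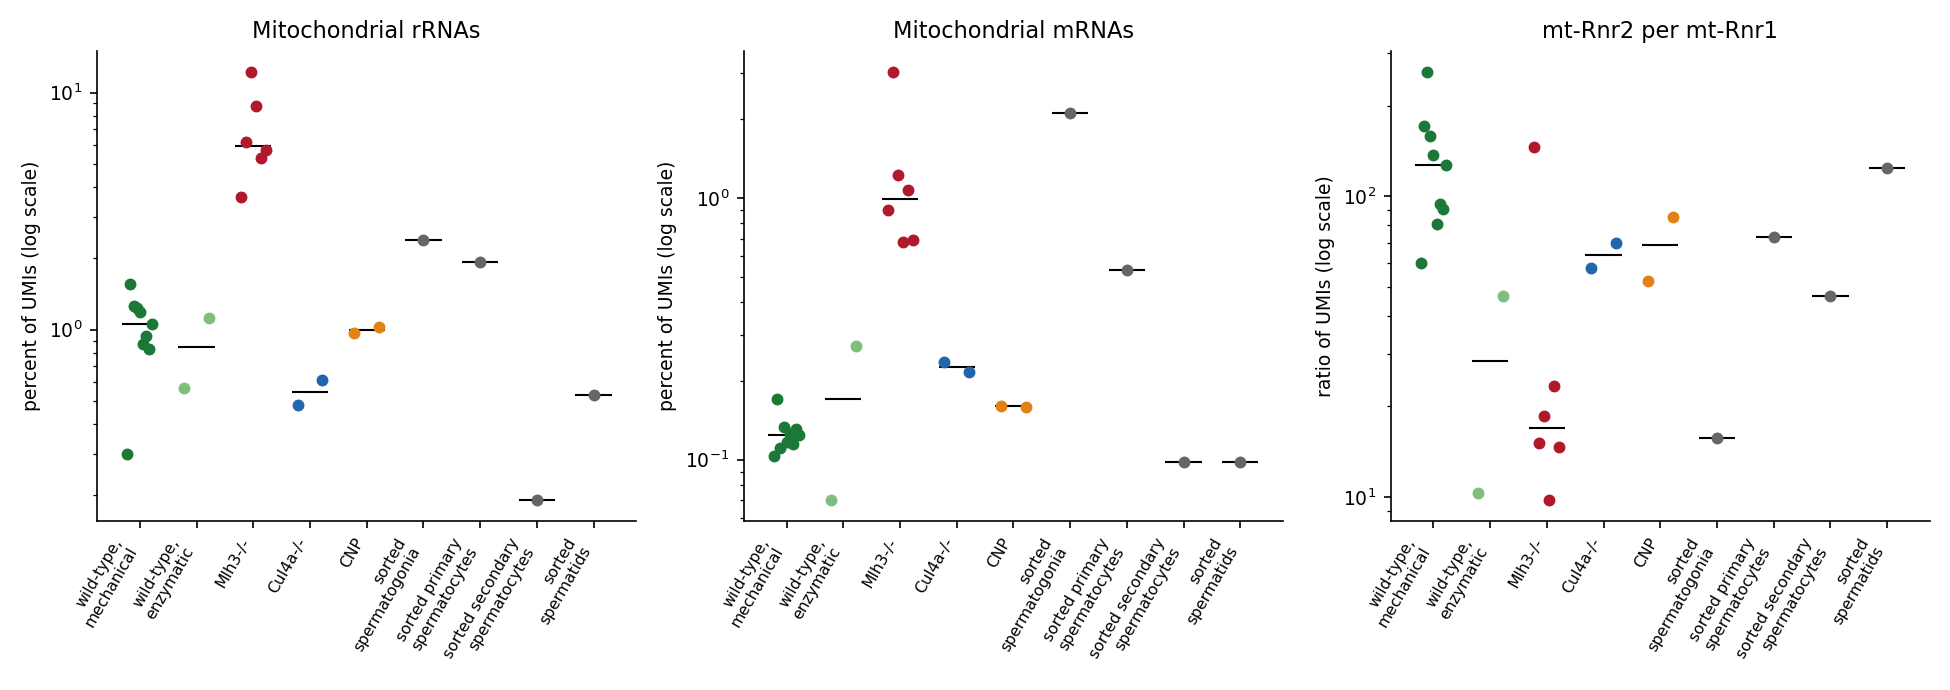
Percent of a library's UMIs from the 2 mitochondrial rRNAs (left) and the 11 mRNAs (middle), and the ratio of mt-Rnr2 to mt-Rnr1 UMIs (right), on log axes with 1 point per library and a line at each group's median. The 6 Mlh3-/- libraries lie above all 9 mechanical wild-type libraries in rRNA (from 3.65% against at most 1.55%) and in mRNA (from 0.677% against at most 0.170%).

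The comparison of Mlh3-/- with wild-type asks how the testis transcriptome differs when spermatocytes lack MLH3, a protein of meiotic crossing over. Mitochondrially encoded transcripts took a larger share of all UMIs in every Mlh3-/- library. Their summed share was 4.55% to 13.4% (median 7.82%) against 0.403% to 1.72% (median 1.18%) in the controls, and the groups did not overlap. The rRNA share was 3.65% to 12.2% against 0.300% to 1.55%, and the mRNA share 0.677% to 3.03% against 0.103% to 0.170%. mt-Rnr2 alone averaged 6.57% of UMIs in Mlh3-/- and 1.02% in the controls, higher in 6 of 6 libraries (two-sided exact permutation test p = 0.0004, the smallest this design can give with libraries 2 and 3 counted as separate samples; 0.0016 after Benjamini-Hochberg adjustment over 4 such comparisons). In whole testis, a change in which cells are present and a change in RNA per cell cannot be told apart.

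The rRNAs are described first. mt-Rnr1 stood at 48.7 to 107 CPM in the 9 controls (median 85.7) and at 248, 3819, 6207, 8133, 2179 and 3635 in Mlh3-/- libraries 1 to 6. Library 1 was far below the other 5, but all 6 were above the highest control. mt-Rnr2 stood at 2952 to 15450.2 CPM in the controls (median 10454) and at 36204 to 115847 in Mlh3-/- (median 55685), again without overlap. The difference was 5.13 ± 0.39 for mt-Rnr1 and 2.18 ± 0.30 for mt-Rnr2 (log2 fold change ± SE, edgeR's quasi-likelihood test, Benjamini-Hochberg adjustment over 23351 genes, adjusted p = 2.57e-13 and 1.44e-07). The ratio of mt-Rnr2 to mt-Rnr1 fell accordingly, from 60.1 to 259 in the controls (median 127) to 9.80 to 146 in Mlh3-/- (median 16.9), where library 1 gave the 146 and lay inside the control range. A limit on each cell's scaled mt-Rnr2 level, modelled on the study's filter, removes cells by the level of a gene compared here. It kept 89 of 788 clustered cells in Mlh3-/- library 3 and 2697 of 2976 in control library 4. Lower mt-Rnr2 values under it are thus built in. With it the rRNA share was 0.858% to 3.10% in Mlh3-/- and 0.294% to 1.26% in the controls, mt-Rnr1 gave 3.20 and mt-Rnr2 no longer passed (0.47). Without Mlh3-/- library 4, mt-Rnr1 gave 4.52.

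The 8 mRNAs other than mt-Co2, mt-Co3 and mt-Atp6 rose, of which mt-Nd3 and mt-Co1 are uncertain for the copies given above. mt-Nd1, mt-Nd2, mt-Nd4 and mt-Nd5 encode membrane subunits of complex I, the NADH dehydrogenase. mt-Nd1 stood at 299.6 to 462 CPM in the controls (median 342) and at 1643 to 9234 in Mlh3-/- (median 2565), where library 2 gave the 9234 and the next highest was 2971. mt-Nd5 stood at 77.5 to 166 in the controls (median 93.2) and at 926 to 2474 in Mlh3-/- (median 1337). The 2 groups were apart for both genes, and for both the highest Mlh3-/- library was the same library 2. mt-Nd2 went from 100.2 to 157 (median 144) to 798 to 3866 (median 1188), and mt-Nd4 from 111 to 223 (median 192) to 827 to 4636 (median 1241). mt-Nd6, from the other strand, stood at 6.45 to 14.4 CPM in the controls and 64.7 to 353 in Mlh3-/-, and mt-Nd3 at 0.322 to 6.01 and 22.1 to 54.6. None of these ranges overlapped. The share of all genes whose ranges were apart was not counted, in this or the other comparisons. In this one, 33.4% of all genes were called higher, so ranges apart need not be particular to mitochondrial genes. Outside complex I, mt-Cytb went from 209.6 to 423 (median 334) to 1408 to 7392 (median 2391) and mt-Co1 from 73.2 to 261 (median 104) to 644 to 2337 (median 1036), in each case with all 6 mutant libraries above all 9 controls.

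On the log2 scale the mRNA fold changes ran from 2.496 to 3.62. The largest among the well-counted mRNAs was that of mt-Nd6 (3.62 ± 0.29, adjusted p = 7.03e-13, edgeR's quasi-likelihood test, Benjamini-Hochberg adjustment), and the smallest that of mt-Cytb (2.496 ± 0.26, adjusted p = 3.33e-10). Between them were mt-Nd5 at 3.30 ± 0.25, mt-Nd2 at 2.95 ± 0.22, mt-Nd3 at 2.87 ± 0.35, mt-Nd1 at 2.62 ± 0.23, mt-Nd4 at 2.60 ± 0.25 and mt-Co1 at 2.59 ± 0.30. Among mitochondrial mRNA UMIs, mt-Nd5 took 8.16% to 15.9% in Mlh3-/- (median 13.6%) against 6.73% to 9.78% in the controls (median 7.53%). mt-Nd1 took 24.2% to 30.4% (median 25.9%) against 26.7% to 30.4% (median 29.0%). The ranges overlapped for both, but the Mlh3-/- median of mt-Nd5 lay above every control. mt-Co2 also passed the test, but its 6 UMIs all came from 4 Mlh3-/- libraries and it entered the fit only through them, so no fold is given. mt-Co3 had 4 UMIs in Mlh3-/- and mt-Atp6 had 2 there and 2 in Cul4a-/-, with 0 in the controls, and neither entered the fit.

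Of 27 mitochondrial genes in the fit, 21 were higher and 0 lower in Mlh3-/-, where 33.4% of all 23351 genes were called higher. mt-Co2 is among the 27 and the 21, though it entered the fit only through Mlh3-/- libraries, so its call adds no support. The 27 had a median log2 fold change of 2.33, against 0.19 over all genes. Calls over all genes were 7796 higher and 6669 lower, and 10394 and 5073 when libraries were scaled by their total alone, which moved the median of all genes to 0.68. The 21 comprise the 2 rRNAs, 9 of 9 mRNAs (mt-Co2 included) and 10 of 16 tRNAs. Among the HiSeq libraries alone, 4 Mlh3-/- and 8 controls, 19 were higher, and the MiSeq runs held too few libraries for a test. Leaving out Mlh3-/- library 2 left the count at 21, and with Mlh3-/- libraries 2 and 3 summed to 1 sample it was 20.

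**Figure D3:**
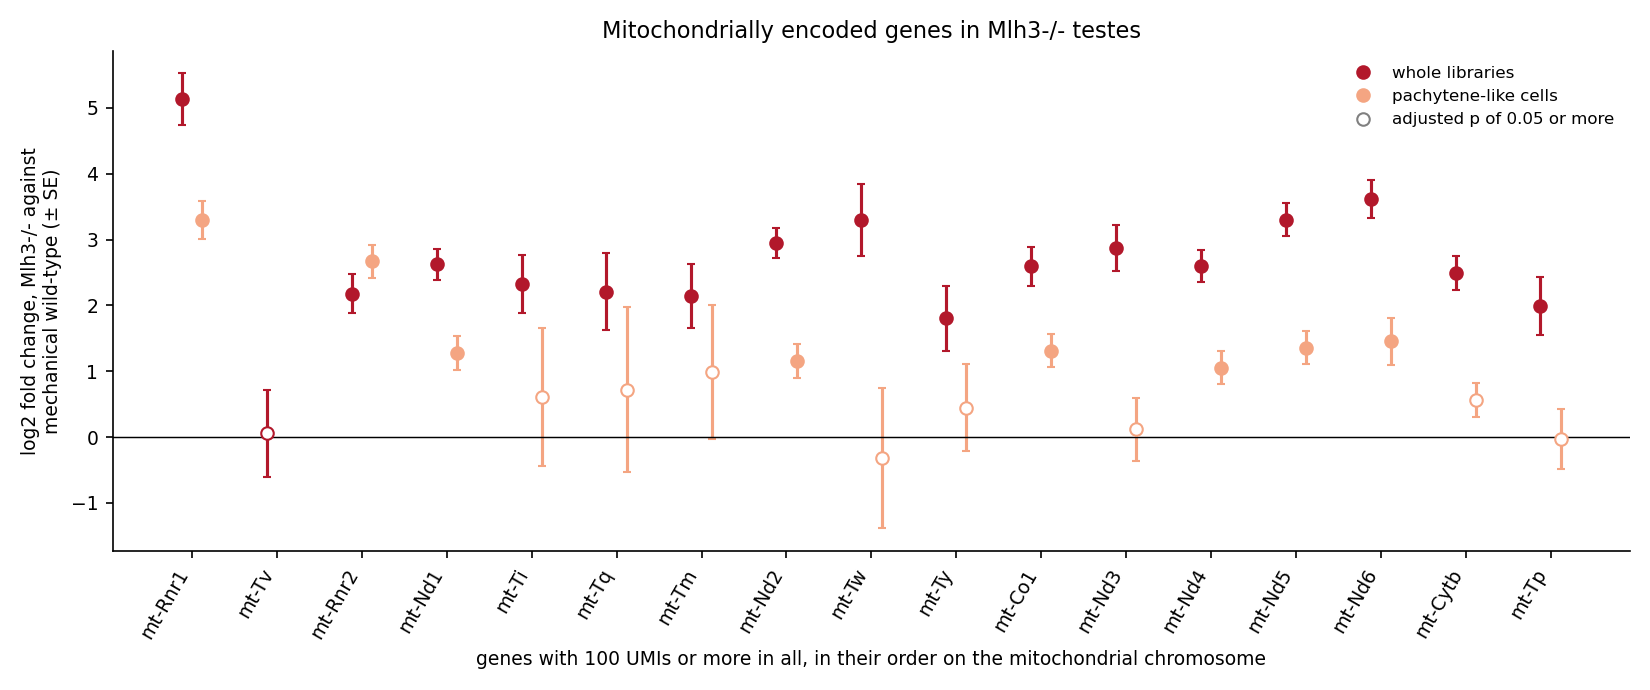
Log2 fold change of Mlh3-/- over mechanical wild-type (points) with 1 SE (bars) for mitochondrial genes with at least 100 UMIs, in whole libraries and in pachytene-like cells; open points have an adjusted p of 0.05 or more. mt-Rnr1 is the highest in both sets (5.13 and 3.29), and the mRNAs lie lower in pachytene-like cells than in whole libraries.

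The tRNAs were counted 5 to 468 times each over all libraries, so their values are coarse. mt-Ti, the isoleucine tRNA, stood at 0 to 1.38 CPM in the controls and 2.33 to 15.5 in Mlh3-/-, and was the only tRNA whose groups did not overlap. mt-Tp, the proline tRNA, stood at 0.777 to 7.24 against 5.82 to 91.0, and mt-Ty, the tyrosine tRNA, at 0.388 to 8.60 against 3.31 to 111, with the highest mutant values above and the lowest within the control range. Called higher by edgeR's quasi-likelihood test, Benjamini-Hochberg adjustment were mt-Tw (3.29 ± 0.55), mt-Tc (3.12 ± 0.70), mt-Te (2.68 ± 0.74), mt-Ti (2.33 ± 0.44), mt-Tq (2.21 ± 0.59), mt-Tm (2.14 ± 0.49), mt-Ta (2.04 ± 0.58), mt-Tp (1.99 ± 0.44), mt-Ty (1.80 ± 0.50) and mt-Tt (1.66 ± 0.59, adjusted p = 0.0153, the weakest of these). Without Mlh3-/- library 3, mt-Tc gave 2.00 and mt-Tt 1.06, and mt-Tt lost its call, while mt-Ty gave 1.00 without library 2. mt-Ty and mt-Tt each kept the call in 11 of 14 other settings, mt-Ty at as little as 0.40 in HiSeq libraries. The 6 tRNAs that did not pass, mt-Tf, mt-Tl1, mt-Tl2, mt-Tr, mt-Ts2 and mt-Tv, had log2 fold changes of -0.39 to 1.83.

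Other transcripts moved with the same libraries. The nuclear-retained RNAs Malat1 and Neat1 summed to 5775 to 16129 CPM in Mlh3-/- and 350.4 to 903 in the controls. Lists of markers for several somatic cell types had higher sums as well: all 7 Leydig markers were detected and summed to 1336 to 9180 CPM against 89.6 to 363, 9 of 10 Sertoli markers had a row and summed to 1075 to 5483 against 221 to 425, and 5 of 6 erythroid markers had a row and summed to 35.5 to 628 against 1.64 to 88.7, where the groups overlap. Macrophage markers (11 of 12 with a row) summed to 81.0 to 860 against 19.5 to 43.8 and telocyte markers (8) to 204 to 365 against 14.7 to 109, while peritubular myoid markers (6) summed to 10.6 to 140 against 240.0 to 359.6. Endothelial markers (5) at 3.79 to 7.37 overlapped the controls at 2.71 to 5.48, and T lymphocyte markers (7) stood at 4.98 to 12.4 against 13.6 to 39.3. Genes induced by dissociation stress (8) summed to 39.9 to 269 against 10.6 to 23.1, and 2 rows of cytosolic rRNA to 1.16 to 46.6 against 0 to 2.90. The part of each in the mitochondrial difference was not tested.

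Leydig-like and Sertoli-like cells each held more of the mitochondrial UMIs in Mlh3-/- than pachytene-like cells. Cells were clustered without any mt- gene and a cluster was given a name only from its markers, as "X-like", without removal of doublets. Leydig-like cells (1648 cells) gave 30.6% of the mitochondrial UMIs in clustered Mlh3-/- cells, Sertoli-like cells (1482) gave 22.1% and a hemoglobin-led erythroid-like cluster (3455) gave 20.5%. These sums over the 6 libraries rest on a few of them: 459 and 700 of the Leydig-like cells came from libraries 1 and 3, 766 of the Sertoli-like cells from library 4, and all but 1 of the erythroid-like cells from libraries 4 to 6. The erythroid-like cluster was shallow, with a median of 342 UMIs a cell, and its 10 leading genes also held Insl3, Clu and Malat1, which are not erythroid genes, so the part of free RNA in its values was not tested. Mitochondrial UMIs made up 12.99%, 19.96% and 19.8% of all UMIs in these 3 sets, against 2.49% in the 639 pachytene-like cells, which gave 7.66% of the mitochondrial UMIs. By library the share was 5.39% to 16.3% in Leydig-like cells of the 6 libraries, 11.98% to 26.7% in Sertoli-like cells of the 4 with at least 10 of them, and 16.5% to 24.3% in the erythroid-like cluster of 3. In the mechanical wild-type libraries Leydig-like cells numbered 41, with 3.40% of UMIs mitochondrial, and Sertoli-like cells 79, with 2.98%. Most of the Mlh3-/- Leydig-like and Sertoli-like cells sat in clusters that held no wild-type cell, such as cluster 11 (896 cells) and cluster 19 (702 cells), so a cell type and a set of libraries cannot be told apart there. In the controls, 65.9% of clustered cells (16411) stayed unnamed and gave 76.6% of mitochondrial UMIs.

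Barcodes with few UMIs had a larger mitochondrial share in every strain. Pooled by UMIs per barcode, the mitochondrial percentage in the controls had a median over libraries of 2.35% from 200 to under 500 UMIs, 2.01% from there to under 1000, 0.765% from there to under 2000 and 0.392% at 2000 or more. In Mlh3-/- it was 19.0%, 14.3%, 9.79% and 3.55% in the same classes, over 3, 5, 6 and 6 libraries, and at 2000 UMIs or more the 6 libraries ranged from 1.40% to 12.5% against 0.260% to 0.546% in the 9 controls, without overlap. In Cul4a-/- it was 2.97%, 1.81% and 0.427% in the classes from 500 UMIs up, and in CNP 1.13%, 0.460% and 0.370%.

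**Figure D4:**
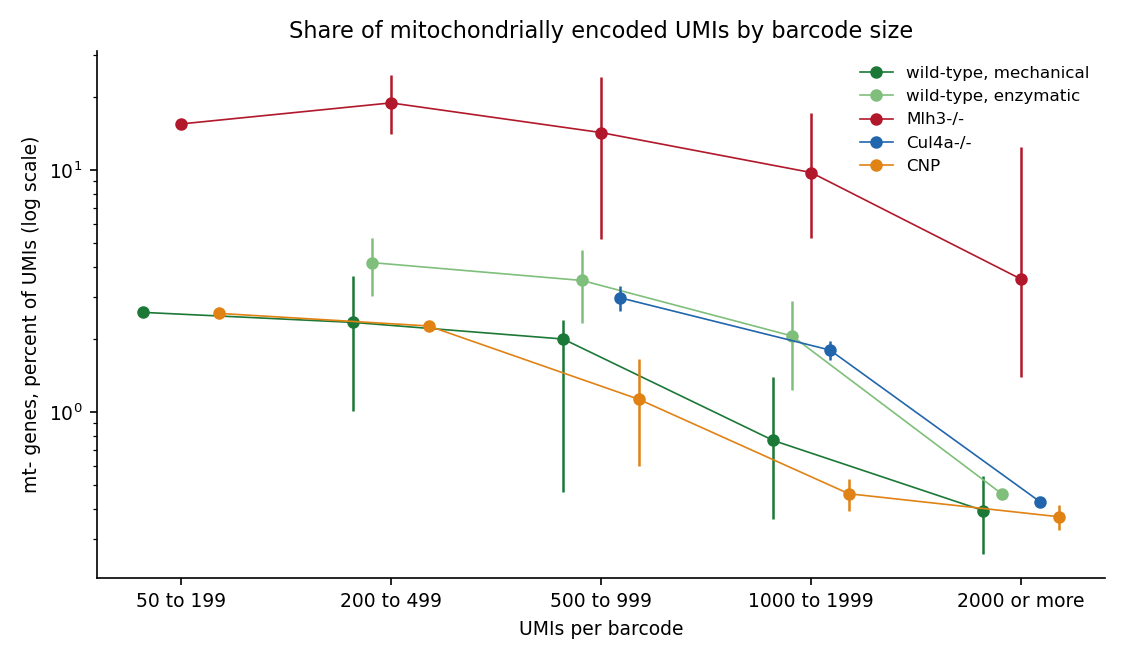
Mitochondrial percentage of UMIs against the number of UMIs per barcode, for each strain; points are medians over libraries and vertical lines run from the lowest to the highest library. The percentage falls with barcode size in the controls (2.35% to 0.392% from 200 UMIs up), and Mlh3-/- stays above them in each class of size.

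Nuclear genes that act on the mitochondrial genome or complete the respiratory complexes are given beside these changes. Of 40 tested genes for mitochondrial genome expression (replication, transcription, RNA processing and translation factors), 19 were higher and 8 lower in Mlh3-/-, beside 33.4% of all genes higher and 28.6% lower, and their summed level overlapped, at 1090.3 to 1339.7 CPM against 1113 to 1245. The largest rises were those of Hsd17b10, a subunit of mitochondrial RNase P (3.82 ± 0.33), and Fastkd1 (2.36 ± 0.23). The largest falls were those of Tfam, the main packaging and transcription factor of mitochondrial DNA (-4.94 ± 0.23), and Nsun4, an rRNA methyltransferase (-2.91 ± 0.26). Tfam was among the leading genes of elongating spermatid-like clusters 13 and 22, a class with 0 Mlh3-/- cells. Counts per gene do not tell forms of the Tfam transcript apart. Of nuclear complex I subunits 12 of 36 were higher and 6 lower, with Ndufb11 (2.77 ± 0.30) and Ndufa1 (2.44 ± 0.29) highest, and Ndufa12 (-0.73 ± 0.20) and Ndufa13 (-0.71 ± 0.17) lowest. Complex II had 3 of 4 higher (Sdhd 0.71 ± 0.18, Sdhc 0.60 ± 0.16) and 0 lower. Complex III had 4 of 9 higher and 1 lower (Uqcr11 1.42 ± 0.27, Cyc1 1.39 ± 0.19, Uqcrfs1 -0.63 ± 0.18). In complex IV, 7 of 18 were higher and 3 lower, led by the somatic form Cox7a1 (4.53 ± 0.48) and Cox7b (3.93 ± 0.35), with Cox5a (-0.83 ± 0.20) and the testis form Cox6b2 (-0.62 ± 0.21) lower. In complex V, 6 of 18 were higher and 1 lower (Atp5g2 1.89 ± 0.47, Atp5g3 1.41 ± 0.20, 2010107E04Rik -1.14 ± 0.22). The medians of the 6 lists lay between 0.15 and 0.56, beside 2.33 for the mitochondrially encoded genes and 0.19 for all genes. Of the 5 tested nuclear copies of mitochondrial sequence 3 were higher, led by Gm13341 (4.83 ± 0.52) and Gm13340 (3.20 ± 0.48).

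Pachytene spermatocytes allowed a comparison of Mlh3-/- and wild-type within a single germ cell class, with 639 cells in 6 mutant libraries and 327 cells in 9 controls. mt-Rnr1 stood at 206, 1986, 2167, 1524, 339.7 and 959 CPM in pachytene-like cells of Mlh3-/- libraries 1 to 6 against 0 to 165 (median 142) in the controls, and mt-Rnr2 at 5349 to 37231 (median 18988) against 2168 to 4910 (median 3415). All 6 mutant libraries were above all 9 controls for both rRNAs. The rise was 3.29 ± 0.29 for mt-Rnr1 and 2.67 ± 0.25 for mt-Rnr2 (log2 scale, edgeR's quasi-likelihood test, Benjamini-Hochberg adjustment over 14501 genes, adjusted p = 9.94e-16 and 6.82e-15).

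The mRNAs differed less in these cells, and their groups overlapped. mt-Nd5 stood at 467 to 2908 (median 899) against 340.0 to 808 (median 416), mt-Nd1 at 1036 to 10528 (median 1839) against 1093 to 2281 (median 1262), and mt-Cytb at 1113 to 8889 (median 1998) against 988 to 3714 (median 2078). Library 2 held the highest value of each, and the lowest mutant library lay within the wild-type range for mt-Nd5 and mt-Cytb and below it for mt-Nd1. Of the mRNAs, 6 of 8 passed the test, in order mt-Nd6 (1.45 ± 0.35), mt-Nd5 (1.36 ± 0.25), mt-Co1 (1.32 ± 0.25), mt-Nd1 (1.28 ± 0.27), mt-Nd2 (1.15 ± 0.26) and mt-Nd4 (1.06 ± 0.25), with adjusted p from 1.93e-05 to 0.00191 by edgeR's quasi-likelihood test, Benjamini-Hochberg adjustment. mt-Cytb (0.56 ± 0.25, adjusted p = 0.166) and mt-Nd3 (0.12 ± 0.48) did not, nor did any of 9 tRNAs. In all, 8 of 19 mitochondrial genes were called higher, where 4.36% of all genes were. Without library 2 the count was 5, with mt-Nd1, mt-Nd2 and mt-Nd4 at 0.45, 0.39 and 0.35 and no longer called, and with mt-Co1 and mt-Nd5 at 0.81 and 0.89. A limit of 50 cells per library left only 3 Mlh3-/- and 2 control libraries. There none of the 6 mRNAs passed, with mt-Nd6 at 0.95, mt-Nd2 at 0.31, mt-Co1 at 0.23, mt-Nd4 at 0.08, mt-Nd1 at 0.03 and mt-Nd5 turned to -0.26. mt-Cytb turned to -0.59 and was called lower (adjusted p = 0.00497, edgeR's quasi-likelihood test, Benjamini-Hochberg adjustment). In HiSeq libraries mt-Nd1, mt-Nd2 and mt-Nd4 did not pass, at 0.21, 0.32 and 0.15. Leptotene/zygotene-like cells of 4 Mlh3-/- and 6 control libraries were not tested. There mt-Rnr1 stood at 487 to 4478 CPM against 79.7 to 229, while the ranges of mt-Rnr2 and of each counted mRNA overlapped. Medians were lower in Mlh3-/- for mt-Cytb (3590 against 5375), mt-Nd1 and mt-Nd4, and higher for mt-Nd2, mt-Nd3, mt-Nd5, mt-Nd6 and mt-Co1 (1044 against 457).

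Other measures moved with the pachytene-like cells. In the pachytene-like cells the Leydig markers summed to 93.0 to 2391 CPM in Mlh3-/- and 0 to 152 in the controls, erythroid markers to 1.90 to 52.4 and 0 to 7.08, and Malat1 with Neat1 to 918 to 4712 and 760 to 2098. The median UMIs per cell were 1410 to 4460 and 1026 to 2772. The part of these in the mitochondrial difference was not tested. The class was made up of clusters 17, 39 and 44 in both strains (346, 132 and 157 mutant cells, 264, 37 and 26 wild-type cells), with another 4 mutant cells in cluster 45. Clusters 5 and 28, which matched pachytene best but had too few markers for a name, were left out. They held 734 and 223 mutant cells and 308 and 192 mechanical wild-type cells. Among nuclear genes of the same lists, where 5.34% of all genes were lower, Tfam was lower (-1.91 ± 0.42, adjusted p = 0.000586) and Cox7b higher (4.67 ± 1.57, adjusted p = 0.0434), and none of the other genes of these lists passed.

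Within wild-type spermatogenesis, the question is how mitochondrial transcripts change from meiosis to the elongating spermatid. The 9 mechanical wild-type libraries held 327 cells called pachytene-like, 2195 called meiotic division-like, 2762 called round spermatid-like and 2888 called elongating spermatid-like, and each library served as its own block. The division-like class was named from markers that the study lists for diplotene and the divisions together. It may thus hold cells of late prophase, and it also took in 50 Mlh3-/- cells. Division below stands for that whole class. Clusters 5 and 28 matched pachytene best but had too few markers for a name, so they lie outside this path. They held 308 and 192 mechanical wild-type cells. With all libraries pooled, their mRNA shares were 0.352% and 0.217%. How much of the fall into division lies in such cells was not tested. The mRNA share of UMIs was 0.441% to 0.956% (median 0.577%) in pachytene-like cells, 0.0862% to 0.172% (0.120%) in division-like cells, 0.0220% to 0.0492% (0.0300%) in round and 0.0459% to 0.0727% (0.0624%) in elongating spermatid-like cells. The rRNA share moved otherwise, at 0.231% to 0.507% (0.356%), 0.209% to 0.406% (0.258%), 0.205% to 0.472% (0.271%) and 0.485% to 0.972% (0.567%). In the 6 libraries with enough leptotene/zygotene-like cells (91 cells) the mRNA share was 0.917% to 1.67% (1.34%), with only the lowest under the highest pachytene-like library. No mechanical wild-type library had 10 spermatogonia-like cells, so the stage before meiosis is missing from this path.

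mt-Cytb is the clearest case. It stood at 988 to 3714 CPM in pachytene-like cells (median 2078), 137 to 359.7 in division-like cells (median 221), 40.8 to 126 in round spermatid-like cells (median 68.2) and 87.9 to 179 in elongating spermatid-like cells (median 146). Its fall into division was seen in 9 of 9 libraries, as was its fall into round spermatids and its rise into elongating ones. mt-Nd1 followed, with medians of 1262, 346, 93.1 and 199.1 CPM. mt-Rnr2, in contrast, had medians of 3415, 2536, 2674 and 5603, with ranges that overlapped across the first 3 classes while the last ranged from 4785 to 9683, with only its lowest library under the highest pachytene-like one. mt-Rnr1 had medians of 142, 67.8, 36.7 and 40.2, so that the ratio of mt-Rnr2 to mt-Rnr1 went from a median of 23.4 through 38.5 and 74.3 to 164.

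**Figure D5:**
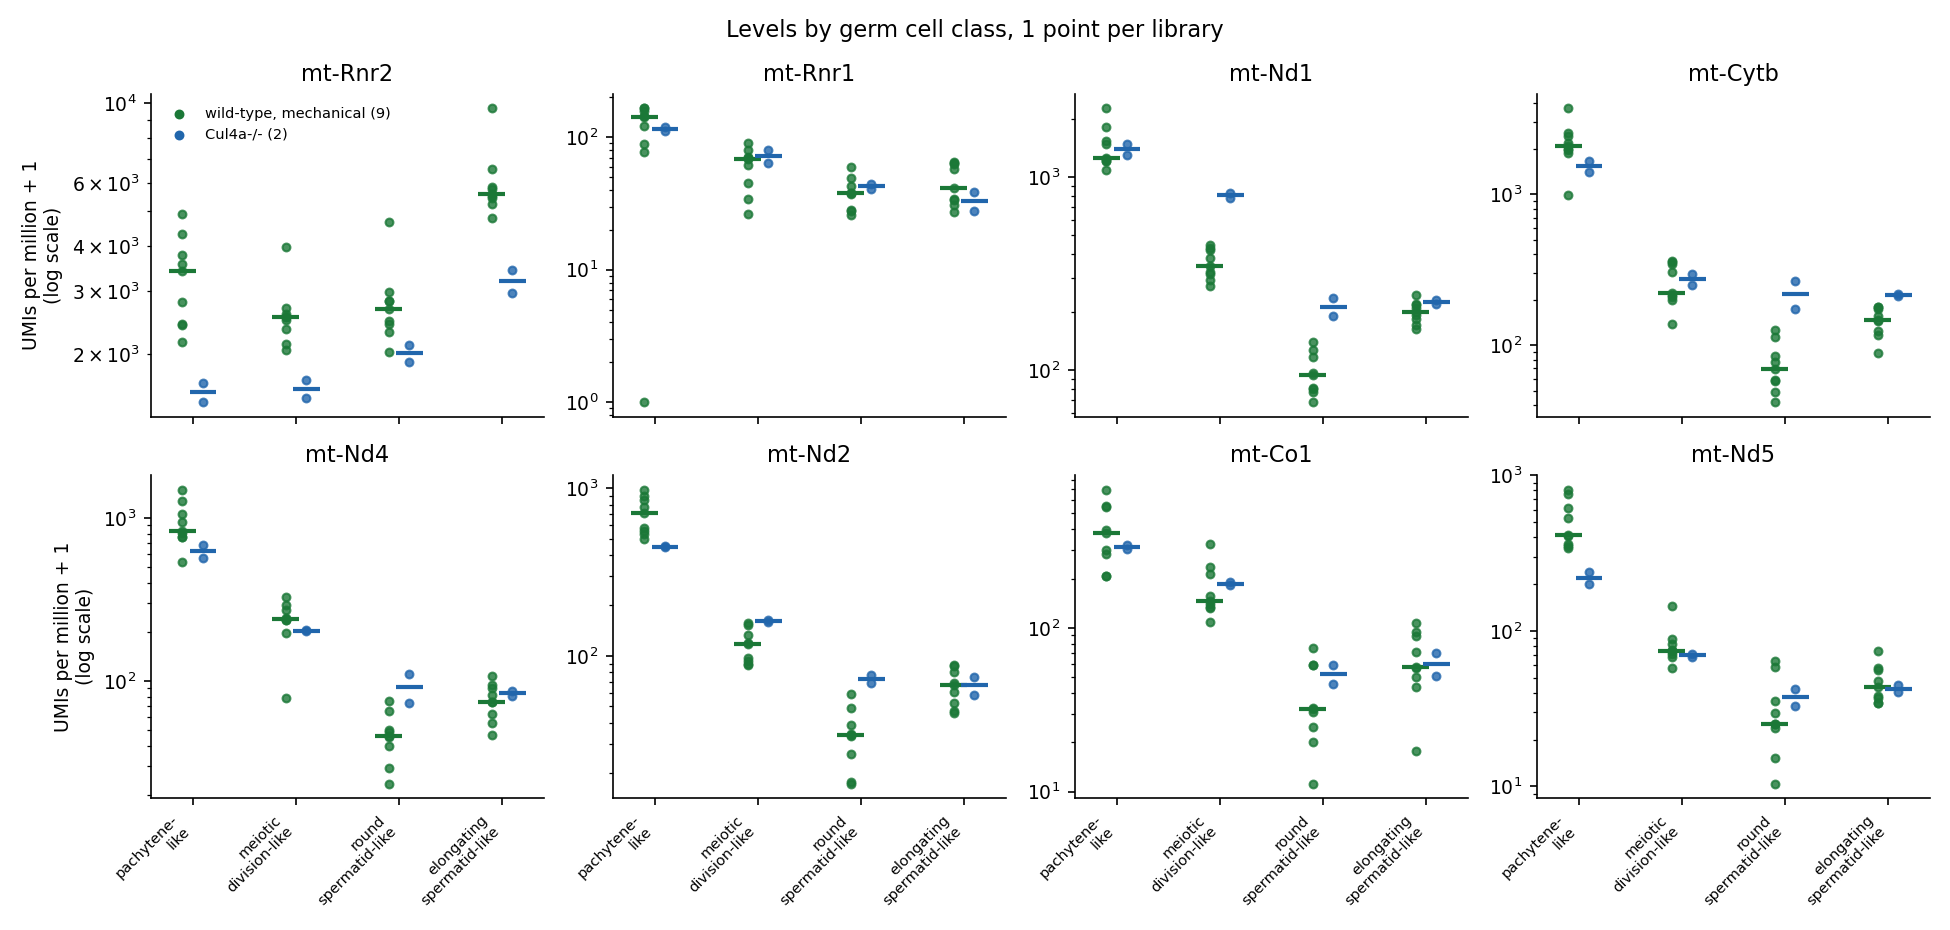
CPM plus 1 on a log axis for 8 mitochondrial genes in 4 germ cell classes, with 1 point per library for 9 mechanical wild-type and 2 Cul4a-/- libraries and a line at each median. In wild-type, mt-Cytb goes from a median of 2078 to 68.2 between pachytene-like and round spermatid-like cells, while mt-Rnr2 goes from 3415 to 2674.

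From pachytene-like to division-like cells, 11 of 18 mitochondrial genes fell and 0 rose, where 19.2% of all genes fell. All 8 mRNAs fell: mt-Cytb by 2.67 ± 0.10 on the log2 scale (adjusted p = 1.11e-157, edgeR's quasi-likelihood test, Benjamini-Hochberg adjustment), mt-Nd3 by 2.44 ± 0.54, mt-Nd6 by 2.31 ± 0.39, mt-Nd2 by 2.19 ± 0.12, mt-Nd5 by 2.12 ± 0.14, mt-Nd1 by 1.58 ± 0.10, mt-Nd4 by 1.55 ± 0.11 and mt-Co1 by 0.76 ± 0.13. In plain CPM mt-Nd6 was lower in 7 of 9 libraries and higher in 2, and mt-Nd3 lower in 5 and higher in 3, while the other 6 were lower in 9 of 9. The tRNAs mt-Tp and mt-Ty fell by 2.17 ± 0.50 and 1.84 ± 0.57. The former did not pass at a clustering resolution of 1 (-1.43) or where libraries needed 50 cells (-2.08). The latter did not pass without wild-type library 9 (-1.13) or where libraries needed 50 cells (-1.05). The limit of 50 cells left only 2 libraries in this step. mt-Rnr1 fell by 0.66 ± 0.19 (adjusted p = 0.0015). mt-Rnr2 gave 0.11 ± 0.08 (adjusted p = 0.278), though its plain CPM were lower in 8 of 9 libraries, and its direction depended on the scaling (-0.31 without TMM factors). The median of all genes in this step was 0.36, and 0.00 without TMM factors, when calls over all genes went from 4211 higher and 2672 lower to 3130 and 3599.

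From the divisions to round spermatids, 8 of 19 fell, where 25.9% of all genes fell, and 1 rose, where 28.2% rose. mt-Nd4 fell by 2.01 ± 0.10, mt-Co1 by 1.86 ± 0.12, mt-Nd1 by 1.53 ± 0.08, mt-Cytb by 1.42 ± 0.09, mt-Nd2 by 1.41 ± 0.13 and mt-Nd5 by 1.12 ± 0.15. mt-Rnr1 fell by 0.33 ± 0.15 (adjusted p = 0.0436, edgeR's quasi-likelihood test, Benjamini-Hochberg adjustment), which did not pass in 6 of the 9 fits that each left out a library, and mt-Ty fell by 2.16 ± 0.91, on 14 and 2 UMIs, which did not pass in 5 of those 9 fits. The order of mRNAs differed from that of the previous step: mt-Co1, which had fallen least, fell almost the most here. mt-Rnr2 was the gene that rose (0.46 ± 0.04, adjusted p = 1.54e-28 by the same test). In plain CPM it was higher in only 6 of 9 libraries, with log2 ratios of -0.32 to 0.45 and a median of 0.08. mt-Nd3 (-1.88 ± 0.94) and mt-Nd6 (-0.50 ± 0.48) did not pass.

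From round to elongating spermatids, 9 of 16 rose and 0 fell, where 17.4% of all genes rose. mt-Rnr2 rose by 1.64 ± 0.06 (adjusted p = 3.89e-175, edgeR's quasi-likelihood test, Benjamini-Hochberg adjustment) and mt-Rnr1 by 0.80 ± 0.18. The call of mt-Rnr1 was kept in 9 of 10 other settings, with values from 0.29 to 0.97. Of the mRNAs 6 rose: mt-Nd1 by 1.58 ± 0.10, mt-Cytb by 1.47 ± 0.11, mt-Nd2 by 1.46 ± 0.16, mt-Co1 by 1.32 ± 0.16, mt-Nd4 by 1.21 ± 0.15 and mt-Nd5 by 1.18 ± 0.19. mt-Ty rose by 2.41 ± 1.00, on 2 UMIs in round and 8 in elongating spermatid-like cells, and lost that call in 5 of the 9 fits that each left out a library and in 4 of 9 other settings. mt-Nd3 (1.81 ± 1.07) and mt-Nd6 (1.202 ± 0.58) did not pass. In plain CPM mt-Rnr2, mt-Nd1, mt-Nd2 and mt-Cytb were higher in 9 of 9 libraries, by medians of 1.13, 1.01, 1.08 and 1.10 on the log2 scale, mt-Co1 in 8 of 9, mt-Nd4 and mt-Nd5 in 7 of 9 and mt-Rnr1 in 6 of 9. Without TMM factors the median of all genes moved from -0.03 to -0.36 in the step to round spermatids and from -0.08 to -0.56 in this one. Calls over all genes went from 4416 higher and 4065 lower to 3662 and 5664 in the former, and from 2592 and 3317 to 1436 and 5214 in the latter.

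Depth and the sums of Leydig and erythroid markers changed along the same path. The median UMIs per cell ranged over libraries from 1026 to 2772 in pachytene-like cells (median 2043), 885 to 2426 in division-like cells (1836), 818.5 to 1636 in round (1149) and 354.5 to 1306 in elongating spermatid-like cells (744). Leydig markers, which germ cells should lack, summed to medians of 22.3, 28.5, 34.8 and 65.8 CPM in the 4 classes, and erythroid markers to 0, 2.19, 1.86 and 9.08. The part of either in the mitochondrial steps was not tested.

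Nuclear genes of the respiratory chain moved in both directions. From pachytene to division, where 30.3% of all genes rose and 19.2% fell, complex I had 3 of 36 higher and 19 lower (Ndufc2 -1.85 ± 0.17, Ndufs8 -1.82 ± 0.22), complex III 1 and 6 of 9 (Cyc1 -2.23 ± 0.23, Uqcrc2 -1.54 ± 0.14), complex IV 3 and 8 of 15, complex V 3 and 9 of 18 and complex II 0 and 2 of 4, with list medians of -0.31 to -0.51. Mitochondrial genome expression had 9 higher and 10 lower of 37. From division to round spermatid, where 28.2% of all genes rose and 25.9% fell, complex I had 4 higher and 12 lower, complex II 0 and 4 (Sdhd -2.98 ± 0.22, Sdhc -2.53 ± 0.19), complex III 0 and 4, complex IV 1 and 7 and complex V 3 and 6, and mitochondrial genome expression 5 and 11 of 38, among which Tfam rose by 3.05 ± 0.10. From round to elongating, where 17.4% rose and 22.2% fell, complex I had 7 higher and 16 lower, complex II 2 and 2, complex III 2 and 3, complex IV 3 and 8 and complex V 5 and 5, and mitochondrial genome expression 4 and 8 of 38, with Tfam again higher (2.66 ± 0.07).

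The sorted libraries give the same genes in cells sorted for a stage, with 1 library each and so no test. Their clusters went against the labels in part: of 154 cells sorted as secondary spermatocytes 15 were meiotic division-like, 46 round and 72 elongating spermatid-like and 9 Leydig-like, and of 198 sorted as primary spermatocytes 17 were pachytene-like and 172 unnamed. Of 244 cells sorted as spermatogonia 232 were spermatogonia-like, and of 291 sorted as spermatids 58 were round and 207 elongating spermatid-like. Values are given by sort label. The mRNA share was 2.12% in the spermatogonia, 0.530% in the primary spermatocytes, 0.0982% in the secondary spermatocytes and 0.0980% in the spermatids. mt-Cytb stood at 5683 CPM (exact Poisson 95% interval 5548 to 5821) in the spermatogonia, 1375 (1161 to 1615) in the primary spermatocytes, 300.4 (233 to 382) in the secondary spermatocytes and 259 (198 to 332) in the spermatids. mt-Rnr2 stood at 22584, 19095, 1879 and 5257 CPM, so the library sorted as spermatids was above that sorted as secondary spermatocytes by more than counting error, which is all that these intervals cover. The value for the secondary spermatocytes depends on which barcodes are used: 154 of 398 had at least 200 UMIs and were summed, the rRNA share was 0.192% in these and 0.299% with every barcode, and the 23 barcodes with 2000 UMIs or more were 0.0715% mitochondrial where the 3 classes from 200 to under 2000 UMIs had 0.646% to 0.970%. The spermatogonia had 1.13 rRNA UMIs for each mRNA UMI, below each of the 9 mechanical wild-type libraries (2.91 to 11.4), and came from 7-day-old mice, enzymatic dissociation and a HiSeq run where the other 3 came from MiSeq runs, which cannot be told apart from the stage.

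Cul4a encodes a scaffold of ubiquitin ligases, and the Cul4a-/- comparison asks how its loss changes the testis. In whole libraries the mRNA share was 0.216% and 0.237%, above all 9 controls (at most 0.170%), and the rRNA share was 0.481% and 0.613%, within their range. mt-Nd1 stood at 781 and 725 CPM against 299.6 to 462 in the controls, and mt-Cytb at 743 and 628 against 209.6 to 423, so both mutants were above every control for both genes. mt-Nd1 rose by 1.06 ± 0.32 (adjusted p = 0.0486, edgeR's quasi-likelihood test, Benjamini-Hochberg adjustment), and was the only 1 of 27 called, where 4.03% of all genes were called higher. That call was lost without either Cul4a-/- library and without each of 8 of the 9 controls. mt-Cytb at 1.02 ± 0.35 did not pass (adjusted p = 0.0904), and mt-Rnr2 gave -0.93 ± 0.48 (adjusted p = 0.29), with 0.538% of UMIs against 1.02% (two-sided exact permutation test p = 0.109, where 0.0364 is the smallest that 2 against 9 libraries can give, and 0.218 after adjustment over the 4 comparisons).

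In round spermatid-like cells 4 mitochondrial mRNAs were higher in Cul4a-/-. In 887 mutant cells mt-Cytb stood at 263 and 171 CPM in libraries 1 and 2 against 40.8 to 126 in the 9 controls, mt-Nd1 at 235 and 189.7 against 67.0 to 139, and mt-Nd2 at 75.9 and 68.1 against 16.3 to 58.7. Both mutant libraries were above all controls for these 3 genes, and for mt-Nd4 the lower mutant library, at 72.1, lay just within the control range of 22.3 to 74.4. The rises were 1.67 ± 0.20 for mt-Cytb, 1.28 ± 0.19 for mt-Nd1, 1.24 ± 0.22 for mt-Nd2 and 1.11 ± 0.21 for mt-Nd4 (edgeR's quasi-likelihood test, Benjamini-Hochberg adjustment, adjusted p = 1.01e-11, 7.59e-08, 7.94e-06 and 3.78e-05), 4 of 17 mitochondrial genes where 10.1% of all genes were called higher. The call of mt-Nd4 was lost without Cul4a-/- library 1. mt-Rnr2 (-0.33 ± 0.18) and mt-Rnr1 (0.26 ± 0.24) did not pass. Beside this, nuclear subunits were also called higher in complex I (11 of 36, Ndufs8 1.80 ± 0.25 and Ndufa1 1.40 ± 0.34), complex III (3 of 9), complex IV (6 of 16) and complex V (6 of 18), with 0 lower in each, and complex II had 0 of 4. Mitochondrial genome expression had 1 higher (Tfam 0.60 ± 0.18) and 2 lower of 38, where 3.09% of all genes were lower.

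In elongating spermatid-like cells (1141 mutant cells) mt-Cytb stood at 217 and 211 CPM against 87.9 to 179 and rose by 0.90 ± 0.21 (adjusted p = 0.000622, edgeR's quasi-likelihood test, Benjamini-Hochberg adjustment), where 6.78% of all genes rose. Scaled by library totals alone it gave 0.56 and did not pass. mt-Ty, at 0 in both mutants and 0 to 5.63 in the controls, was called lower, where 2% of all genes were. With no UMI in the mutants, no fold is given and its call adds no support. That call was lost without either mutant library or without control library 11. The other 12 tested mitochondrial genes were not called. Nuclear subunits were called higher in complex I (4 of 36), III (1 of 9), IV (2 of 15) and V (4 of 18). In pachytene-like cells (313 mutant cells, where 1.72% of all genes were called) 0 of 19 mitochondrial genes were called by edgeR's quasi-likelihood test, 3 had an unadjusted p under 0.05, and DESeq2 called 0. mt-Cytb at 1671 and 1402 CPM (controls 988 to 3714) and mt-Nd1 at 1488 and 1308 (1093 to 2281) lay within the control ranges. mt-Rnr2 at 1670 and 1472 (2168 to 4910) and mt-Nd5 at 237 and 199.9 (340.0 to 808) lay below every control, without passing (-0.77 ± 0.38 and -0.87 ± 0.37, adjusted p = 0.35 and 0.251 by edgeR's quasi-likelihood test, Benjamini-Hochberg adjustment). The difference between the classes was not tested.

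Many mutant cells of these classes sat in clusters with few or no control cells, and they had more UMIs. Cluster 45 held 174 of the 313 pachytene-like, cluster 25 held 505 of the 887 round and cluster 21 held 578 of the 1141 elongating spermatid-like mutant cells, with 0, 1 and 23 mechanical wild-type cells, while cluster 29 held 311 mutant and 82 such control cells. Their medians per cell were 3559 and 4360 in pachytene-like, 3049 and 2178 in round and 2006 and 1948.5 in elongating spermatid-like cells, above the highest control median of each class (2772, 1636 and 1306). Leydig markers summed to 191 and 115 CPM in the round spermatid-like cells of the mutants, against 20.4 to 143 in the controls. Calls over all genes in the round class were 1662 higher and 510 lower, and 1180 and 954 without TMM factors, which moved the median of all genes from 0.22 to 0.08 and left the same 4 genes called. In the elongating class they went from 981 and 290 to 441 and 978.

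The CNP libraries set mice with the transgene against the same controls. In whole libraries 0 of 27 mitochondrial genes were called by edgeR's quasi-likelihood test, Benjamini-Hochberg adjustment, where 0.681% of all genes were called in either direction. Of the 27, 3 had an unadjusted p under 0.05, and DESeq2 called 0. mt-Cytb stood at 537 and 618 CPM against 209.6 to 423, above every control (0.63 ± 0.37, adjusted p = 0.684), and mt-Rnr1 at 182 and 119 against 48.7 to 107 (0.73 ± 0.54, adjusted p = 0.789). mt-Rnr2 at 0.983% of UMIs against 1.02% gave a two-sided exact permutation p = 0.8. mt-Nd3 had no UMI in either CNP library, which allows up to 3.88 and 3.97 CPM (3 counts).

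By class, 0 of 19 genes were called in pachytene-like cells (98 cells, 0.365% of all genes called) and 0 of 17 in round spermatid-like cells (371 cells, 0.867% called), with 2 and 4 at an unadjusted p under 0.05 in edgeR's quasi-likelihood test. DESeq2 also called 0 in both. In elongating spermatid-like cells (140 cells, where 0.567% of all genes were called lower) mt-Rnr2 was lower, at 3567 and 4463 CPM against 4785 to 9683, with both libraries under all controls (-0.94 ± 0.24, adjusted p = 0.0216, edgeR's quasi-likelihood test, Benjamini-Hochberg adjustment). The median of all genes in that comparison was -1.07, and mt-Rnr2 did not pass without TMM factors (-0.60) or without CNP library 2. mt-Nd1 stood at 133 and 62.0 CPM against 163 to 244, below all controls, but did not pass (-1.13 ± 0.42, adjusted p = 0.503). Cells were shallow, with median UMIs of 626 and 460.5.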

How the data were processed

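UMI counts per gene and barcode were used as the authors deposited them, 1 table per library; per the labels and the study's methods, reads were demultiplexed with bcl2fastq and aligned with STAR 2.5.3a to mm10 (GRCm38) in the Drop-seq pipeline, and counts were not normalised. Samples were grouped by strain, sort and dissociation from the labels, with the sequencer taken from the study's supplementary list. The members and gene lists were chosen with earlier results of these data known.

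Barcodes with at least 200 UMIs and 50 genes were summed per library. Cells were clustered without any mt- gene (scanpy 1.11.5, leidenalg 0.10.2, resolution 2, 49 clusters, of which 36 were named from markers), doublets were not removed, and class sums used libraries with at least 10 cells of a class. Because the names were rebuilt, differences from the study's own cell types may come from them. Genes with at least 5 counts were tested with edgeR 4.0.16 (quasi-likelihood, TMM, R 4.3.3), adjusted by the Benjamini-Hochberg method over all genes at 0.05, with all 21 whole-testis libraries in 1 fit and with each library as a block in the stage fits. SE is the log2 fold change divided by the square root of F. Alternatives included DESeq2 1.42.0, other filters, scalings, barcodes and platforms, and leaving out each library. On simulated counts for Mlh3-/- whole libraries (23351 genes), 48% of genes changed by 1 on the log2 scale and 100% of those changed by 2 were recovered, against 33% and 87% for Mlh3-/- pachytene-like cells (14501 genes) and 35% and 83% for the step from pachytene to division (13895 genes). The simulated counts had the same spread between libraries for every gene, and the changed genes were drawn from those at or above the median level. Recovery may thus be lower for sparse genes such as the tRNAs and for genes that vary more between libraries. Libraries are separate samples by label, not always shown to be separate mice, so p-values refer to libraries. Intervals and floors cover counting error only. edgeR estimates the spread with information from all genes, so SE and p can understate the spread of a single gene between libraries.

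Every mt- row is named; of the lists of mitochondrial genome expression and nuclear complexes, the counts called and the most changed called genes in each direction (at most 2) are eligible to be named, and other lists are given as sums.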

Additional observations from a re-analysis of the deposited data

Results flagged for a closer look

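Of 27 sets of values checked, 11 had 1 library far from the rest of its group, where chance marks about 1 in 20 independent sets. These sets share libraries and UMIs, and 7 of the 11 are 1 library, so that share is no guide to their number. Mlh3-/- library 2 was far above the other 5 for mt-Nd1 (9234 CPM), mt-Cytb (7392), mt-Nd4 (4636), mt-Nd2 (3866) and mt-Co1 (2337), and in the shares of UMIs from mitochondrial mRNA (3.03%) and tRNA (0.0331%). Mlh3-/- library 1 had 146 mt-Rnr2 UMIs for each mt-Rnr1 UMI, far above the others. In the controls, library 3 was low for mt-Nd4 (111 CPM), and library 4 was high for mt-Nd5 (166) and in mRNA share (0.170%). These libraries differ in sequencer and in cells. Mlh3-/- libraries 1 and 2 and control library 3 came from MiSeq runs. Of the clustered cells, 459 of 504 in Mlh3-/- library 1 were Leydig-like and 185 of 295 in library 2 were Sertoli-like. Within Leydig-like cells library 1 had 162 mt-Rnr2 UMIs for each mt-Rnr1 UMI, where the other 5 had 9.88 to 23.3, and library 2 had an mRNA share of 3.20% where the others had 0.925% to 3.17%. The part of the sequencer or of the cells was not tested for these values.

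From round to elongating spermatid-like cells, mt-Nd2 and mt-Cytb rose in each of the 9 controls and were lower in both CNP libraries, with a log2 ratio in CNP of -0.16 for mt-Nd2, from the single library with UMIs in both classes, and a median of -0.46 for mt-Cytb over both. This difference between strains was not tested, and rests on 140 elongating spermatid-like CNP cells.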

How the results depend on the processing

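In Mlh3-/- whole libraries 21 mitochondrial genes, mt-Co2 among them, were called, 20 to 21 with any 1 library left out and 15 to 23 under the other settings. The 3 stage steps gave 11, 9 and 9 calls, and 10 to 11, 7 to 9 and 8 to 9 with a library left out, and 8 to 12, 7 to 11 and 7 to 10 under the other settings. The single call of Cul4a-/- whole libraries became 0 with DESeq2, filterByExpr, the mt-Rnr2 limit, scaling without mt- genes, no TMM factors or all 11 wild-type libraries as controls, 2 with no filter, 4 in HiSeq libraries and 6 with only these groups fitted, and ranged from 0 to 1 with a library left out. The 3 enzymatic calls became 5 with no filter, in HiSeq libraries (where enzymatic library 2 is the only one, assumed to vary like the other groups) or with only these groups, and CNP went from 0 to 1 with only these groups. In pachytene-like cells the 8 Mlh3-/- calls became 3 (mt-Rnr1 and mt-Rnr2 higher, mt-Cytb lower) where libraries needed 50 cells, 5 in HiSeq libraries and 5 to 9 with a library left out. Cul4a-/- went from 0 to 2 and 1 with the first pair of settings, and CNP from 0 to 1 in HiSeq libraries. The limit of 50 cells left only 2 controls in that class. In elongating spermatid-like cells Cul4a-/- went from 2 (mt-Ty, at 0 in both mutants, among them) to 4 in HiSeq libraries and 1 to 2 with a library left out. CNP went from 1 to 0 with DESeq2, filterByExpr or no TMM factors and 0 to 1 with a library left out. The cause of these moves was not tested.

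The Mlh3-/- excess in rRNA share, 5.94 percentage points, was 1.19 with the mt-Rnr2 limit, which removes cells by mt-Rnr2 itself. The mt-Rnr2 share of Cul4a-/- was lower by 0.479 points, and by a difference of -0.570 in HiSeq libraries (p under 0.05), with -0.570 to -0.414 over left-out libraries. That of CNP was -0.0351, 0.148 with every barcode and -0.125 to 0.0308 over left-out libraries, and the enzymatic one ranged from -0.500 to 0.0744. Without enzymatic library 2, mt-Co1 and mt-Nd3 turned to -0.95 and -6.41, and without library 1 they were 2.72 and 2.95. mt-Rnr2 from pachytene to division turned to -0.072 (50 cells, 2 libraries), -0.30 (filterByExpr) and -0.31 (no TMM), and mt-Nd5 in Mlh3-/- pachytene-like cells to -0.26 (50 cells, 2 controls). Of 1590 values of single genes under alternatives, 1491 kept direction and side of the threshold and 92 lost the call.

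Mlh3-/- and control libraries share the numbers 3 to 6 in name only: deviations of same-numbered libraries correlated at -0.02, 0.05, -0.19 and -0.21 over 9143 genes, and none was closest to its own number. With the number as a replicate block, 19 genes were called in whole libraries, as without it on the same libraries. In pachytene-like cells 3 were called with the block, and no unblocked fit of the same libraries was made there. The settings without TMM factors in cell classes, with cells of at least 1000 UMIs, and the unblocked fit of those whole libraries were chosen after seeing the data.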
